A study of Mus musculus with 5 samples.

Results

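Transcripts of 34 genes of glucose breakdown and the hypoxia response were followed over 5 arrays of 32D cells, a mouse myeloid progenitor line that needs interleukin-3 to grow. The genes come from a list of pathway members that was drawn up with earlier results of these data known. Of these, 22 cover glucose uptake, the glycolytic enzymes and lactate handling, and 12 are the oxygen-regulated factor Hif1a and genes of the hypoxia response. On the arrays, 31 of the 34 had a probe set that names a single gene, out of 18193 genes with such a probe set. Each array stands for 1 FLT3-ITD construct (ITD78, ITD598, ITD602, ITD611 or ITD613), delivered by retrovirus and stably kept. FLT3-ITD is a receptor tyrosine kinase with an internal tandem duplication that signals without its ligand. In every group the cells had gone through 3 h of starvation and 1 h with a tyrosine kinase inhibitor (TKI) that the labels do not name. All 5 groups therefore share the cell line, an FLT3-ITD receptor, starvation and inhibitor, and no array of cells without a construct or without inhibitor was analysed here. The labels do not say which promoter drives the constructs, whether the cells were clones or pools, or what the construct numbers stand for. The series sets FLT3-ITD variants side by side, and the comparison here asks how far glycolysis and hypoxia transcripts differed between them.

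Glycolysis splits glucose into pyruvate: glucose enters through transporters, is trapped as glucose 6-phosphate by hexokinases, is committed by phosphofructokinase, and after aldolase and the triose-phosphate enzymes yields ATP, pyruvate and, through lactate dehydrogenase, lactate. Under low oxygen the transcription factor HIF-1 escapes the prolyl hydroxylases that mark it for destruction and raises many of these enzymes together with genes for mitophagy, blood vessel growth and protein folding. In blood cells growth factor signalling also drives glucose uptake and hexokinase expression, and activated FLT3 is known to increase glycolysis in leukaemia cells.

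HIF-1 binds a short core sequence, ACGTG or GCGTG, and the promoters of the genes that differed most are shown for that reason. The 250 bases before the RefSeq transcription start (GRCm38.p6) were searched for ACGTG and GCGTG on both strands. A core inside CACGTG, the site of MYC and related factors, is read on both strands there and counts as 2 matches. Below are the 5 promoters found in the table for genes that ITD613 showed at least 2-fold lower than the other arrays did on average, and that of Bnip3, a known hypoxia-inducible gene with nearly equal values on all arrays. They are written 5′ to 3′ on the gene's strand and end at the base before the start, with the cores in capitals. Slc2a1 lies on the plus strand (chr4:119108495-119108744) and Hk2 on the minus strand (chr6:82774455-82774704). Hk3 lies on the minus strand (chr13:55021386-55021635), Pgam1 on the plus strand (chr19:41911621-41911870), Egln3 on the minus strand (chr12:54203875-54204124) and Bnip3 on the minus strand (chr7:138909507-138909756).
Slc2a1: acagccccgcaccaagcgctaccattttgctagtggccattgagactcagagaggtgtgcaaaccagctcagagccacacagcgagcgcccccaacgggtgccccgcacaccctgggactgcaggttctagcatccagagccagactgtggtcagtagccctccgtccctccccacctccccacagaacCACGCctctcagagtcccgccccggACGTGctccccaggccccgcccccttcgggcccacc
Hk2: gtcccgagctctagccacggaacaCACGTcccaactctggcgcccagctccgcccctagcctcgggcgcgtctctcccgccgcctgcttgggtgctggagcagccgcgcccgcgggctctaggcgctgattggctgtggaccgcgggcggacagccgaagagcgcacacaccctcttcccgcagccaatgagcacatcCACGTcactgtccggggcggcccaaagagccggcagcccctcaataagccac
Hk3: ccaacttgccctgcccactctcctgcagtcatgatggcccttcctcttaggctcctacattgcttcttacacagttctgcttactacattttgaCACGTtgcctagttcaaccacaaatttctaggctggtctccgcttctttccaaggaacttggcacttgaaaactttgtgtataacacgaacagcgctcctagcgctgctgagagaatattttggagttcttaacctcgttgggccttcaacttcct
Pgam1: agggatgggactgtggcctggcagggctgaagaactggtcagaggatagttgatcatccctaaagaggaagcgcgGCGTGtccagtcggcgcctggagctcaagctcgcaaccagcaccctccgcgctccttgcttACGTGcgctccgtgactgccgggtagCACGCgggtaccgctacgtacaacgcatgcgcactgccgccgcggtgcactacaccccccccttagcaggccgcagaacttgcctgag
Egln3: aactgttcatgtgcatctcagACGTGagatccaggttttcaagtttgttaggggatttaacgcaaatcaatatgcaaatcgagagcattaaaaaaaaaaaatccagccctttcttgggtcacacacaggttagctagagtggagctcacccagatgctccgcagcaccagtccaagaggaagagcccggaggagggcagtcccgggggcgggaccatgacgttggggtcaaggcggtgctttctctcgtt
Bnip3: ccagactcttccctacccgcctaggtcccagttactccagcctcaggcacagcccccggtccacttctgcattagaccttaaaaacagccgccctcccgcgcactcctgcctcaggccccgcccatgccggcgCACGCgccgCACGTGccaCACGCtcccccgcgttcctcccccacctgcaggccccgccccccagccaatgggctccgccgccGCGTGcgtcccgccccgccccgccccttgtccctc
The cores in the Slc2a1 window begin 61 and 36 bases before the start, those of Hk2 226 and 52 bases before it, and the single core of Egln3 229 bases before it. Pgam1 held 3 matches, Hk3 held 1 and Bnip3 held 5, of which 2 are the strands of 1 CACGTG. Of the members, 31 had an entry, and 28 of these 31 (90.3%) held a core in the window of at least 1 start, against 62.4% of the genes passing the expression filter and 41.5% of all 27025 genes in the table. Counted per start, 36 of 43 starts of members (83.7%) held a core, against 56.5% of the starts of genes passing the filter. A core was found in 7 of 7 members with at least a 2-fold range that had an entry and in 16 of 17 members with a smaller range. Since nearly all members held a core, its presence could hardly tell these groups apart. A match is a description of sequence and not a bound site, and base composition was not matched in these shares. Ndrg1, Slc2a3 and Bnip3l were not in the table.

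The values are log2 RMA values, so that a difference of 1 is 2-fold. Genes whose highest value fell short of 2.75, the 60th percentile over the whole table, were set aside, and 9621 genes passed. Of the 31 measured members, 26 passed, 17 of glycolysis and 9 of the hypoxia group, and each of the 26 lay above 2.75 on all 5 arrays, so none entered through a single high array. Aldoc, Eno2, Slc16a3, Adm and Ankrd37 stayed between 0.40 and 2.10 and are not described further. Gpi1 and Eno1 had no probe set under their names, and Bnip3l had only probe sets listed with its pseudogene. The highest value that 100 or more probe sets of an array had in common was 3.74, and values below it are called the low range. Pfkfb3 and Car9 lay there on every array, as did Vegfa on ITD613. The array medians over all probe sets ran from 1.99 to 2.06. The array of ITD602 carries another date-like string in its title than the other 4, and for this array a separate run cannot be told apart from the construct. With 1 array per construct no test was possible and the differences have no replicate check. Differences are described by size, and an SD is the spread over the other 4 constructs. Since RNA of whole cultures was measured, fewer cells of a kind and less RNA per cell cannot be told apart.

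Many members differed between constructs, mostly through low values on ITD613. Of the 26 members, 9 had at least a 2-fold range over the 5 arrays (34.6%; 10.4% of all 9621 genes), and the median range was 0.74 against 0.43 for all genes. They were Slc2a1, Slc2a3, Hk2, Hk3 and Pgam1 of glycolysis and Egln3, Ndrg1, Vegfa and P4ha1 of the hypoxia group. With low values raised to 3.74, 8 members had such a range, and Vegfa was no longer one of them. The ITD613 array set most of these ranges: without it 3 members (Hk3, Egln3 and P4ha1) kept a 2-fold range (3.06% of all genes). ITD613 was the lowest array for 17 of the 26 members (65.4%; 29.4% of all genes) and the highest for 0 of 26 (35.7% of all genes). ITD602 was the highest array for 15 of 26 (57.7%; 29.5% of all genes).

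**Figure D1:**
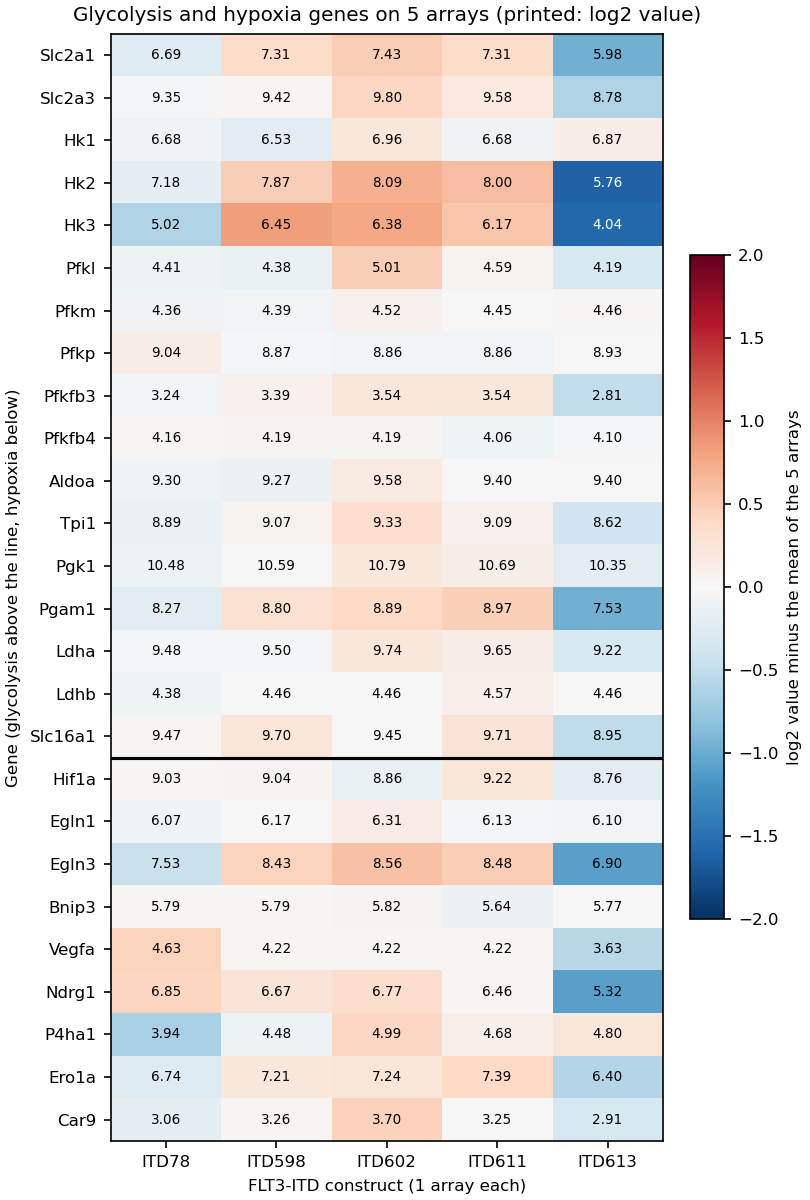
Each cell gives the log2 RMA value of 1 member (rows, glycolysis in pathway order above the line and hypoxia genes below) on 1 array (columns), coloured by its distance from the gene's mean over the 5 arrays. Blue cells gather in the ITD613 column, with Hk2 (5.76) and Hk3 (4.04) the darkest, while Pfkm, Pfkp, Pfkfb4, Ldhb and Bnip3 are pale across all columns.

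Glucose transporters were lowest on ITD613 and highest on ITD602. Slc2a1, which encodes the broadly expressed glucose transporter GLUT1, read 6.69 on ITD78, 7.31 on ITD598, 7.43 on ITD602, 7.31 on ITD611 and 5.98 on ITD613. ITD613 was the low array, ITD78 lay between it and the other constructs, and the mean of the other 4 was 2.30-fold higher than ITD613. Slc2a3, which encodes the high-affinity transporter GLUT3, read 9.35, 9.42, 9.80, 9.58 and 8.78 on the same arrays in that order. ITD613 was again lowest and ITD602 highest, but ITD613 was 0.56 below the nearest array, ITD78. A second probe set above the filter read 8.18 on ITD78, 8.27 on ITD598, 8.55 on ITD602, 8.31 on ITD611 and 7.67 on ITD613, in the same order, and the remaining probe sets of Slc2a3 were below the filter.

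Of the hexokinases, which phosphorylate glucose at the entry of the pathway, Hk2 and Hk3 were low on ITD613 and Hk1 was not. Hk2, the inducible form bound to mitochondria, read 7.18 on ITD78, 7.87 on ITD598, 8.09 on ITD602, 7.998 on ITD611 and 5.76 on ITD613. The ITD613 value was 1.42 below the nearest array and 4.06-fold below the mean of the other 4 (7.78 ± 0.41, SD, n = 4 arrays), the widest such difference among the members. Hk3, a form found mainly in myeloid cells, read 5.02 on ITD78, 6.45 on ITD598, 6.38 on ITD602, 6.17 on ITD611 and 4.04 on ITD613. Here both ITD613 and ITD78 were low, with ITD78 1.15 below the lowest of ITD598, ITD602 and ITD611. On a weaker Hk3 probe set, ITD78 (3.70) was below ITD613 (4.001) and the other arrays read 4.53 to 4.93, so both arrays stayed low but their order turned. Hk1, the constitutive form, read 6.68, 6.53, 6.96, 6.68 and 6.87 in the same array order, and its ITD613 value lay within the other 4.

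At the phosphofructokinase step, the commitment point of glycolysis, Pfkp and Pfkm differed little on the probe sets used. Pfkl was high on ITD602 on 1 of its 2 probe sets above the filter. Pfkp, the platelet-type subunit, ranged from 8.86 on ITD602 to 9.04 on ITD78, a span of 0.18, and Pfkm, the muscle-type subunit, from 4.36 on ITD78 to 4.52 on ITD602. A weaker Pfkp probe set ranged over 0.77 and was lowest on ITD613 (4.02 against 4.22 to 4.79). Pfkl, the liver-type subunit, read 4.41 on ITD78, 4.38 on ITD598, 5.01 on ITD602, 4.59 on ITD611 and 4.19 on ITD613. Pfkl ranged over 0.82 there, with ITD602 0.62 above the mean of the other 4. Its second probe set above the filter read 3.87 on ITD78, ITD598, ITD602 and ITD611 alike and 3.47 on ITD613. Pfkfb3 and Pfkfb4 make and break fructose 2,6-bisphosphate, the activator of phosphofructokinase. Pfkfb3 was lowest on ITD613 (2.81) and read 3.24 to 3.54 on the others, all within the low range, so its difference cannot be sized. Pfkfb4 ranged over 0.13, the narrowest range of all 26 members.

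From aldolase to phosphoglycerate mutase, Pgam1 was the enzyme with a 2-fold range. Pgam1, which moves the phosphate of 3-phosphoglycerate, read 8.27 on ITD78, 8.80 on ITD598, 8.89 on ITD602, 8.97 on ITD611 and 7.53 on ITD613. ITD613 was low and ITD78 stood between, 0.53 below the lowest of the remaining arrays, as for Slc2a1 and Hk2. Tpi1, triose-phosphate isomerase, was lowest on ITD613 (8.62) and highest on ITD602 (9.33). Pgk1, the phosphoglycerate kinase of the ATP-yielding step, read 10.35 on ITD613 and 10.48 to 10.79 on the others. These differences were in the direction of Pgam1 and under 2-fold. Aldoa, the main aldolase, ranged over 0.31 with ITD613 (9.40) within the others, and its 5 probe sets did not share a direction on ITD613, where 1 of 5 read below the mean of the other arrays.

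Of the lactate genes, Ldha and Slc16a1 were lowest on ITD613, with smaller differences. Ldha, the dehydrogenase subunit that favours lactate formation and a classic HIF-1 target, read 9.48 on ITD78, 9.50 on ITD598, 9.74 on ITD602, 9.65 on ITD611 and 9.22 on ITD613. ITD613 was lowest, but the whole span was 0.52. Ldhb, the subunit that favours lactate use, read 4.46 on ITD598, ITD602 and ITD613 alike and ranged over 0.19. Slc16a1, the lactate carrier MCT1, read 9.47 on ITD78, 9.70 on ITD598, 9.45 on ITD602, 9.71 on ITD611 and 8.95 on ITD613. For Slc16a1, ITD613 alone was low and ITD78 lay with the other constructs.

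**Figure D2:**
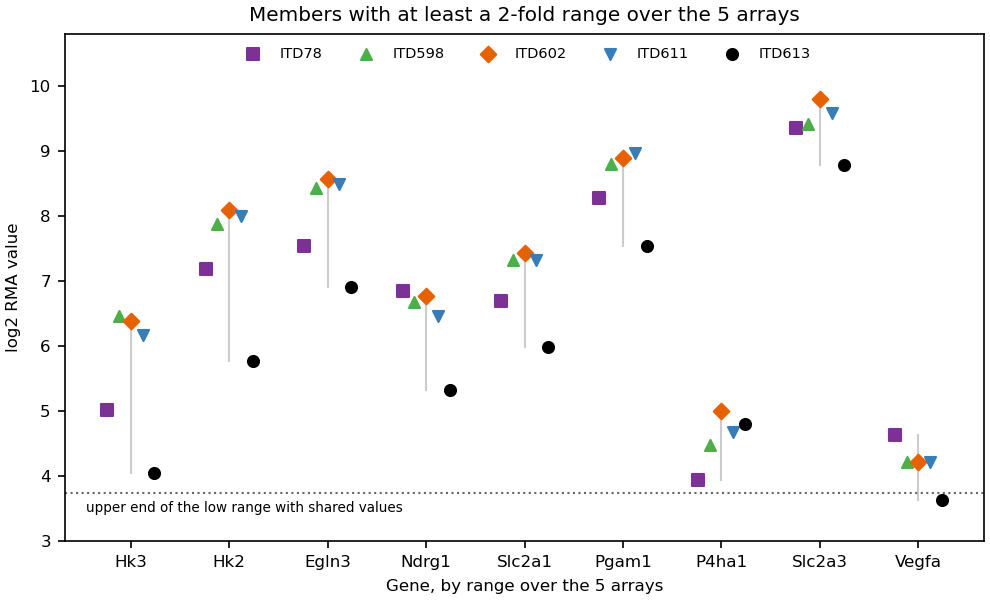
Log2 RMA values (vertical axis) of the 9 members with at least a 2-fold range, ordered by range, with 1 marker per construct. ITD613 (black circles) is lowest for 8 of the 9, and ITD78 (purple squares) is second lowest for 6 and lowest for P4ha1.

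In the hypoxia group, the oxygen-regulated factor Hif1a had a small span on its strongest probe set, while some of its known targets differed more. Hif1a, the regulated subunit of HIF-1, read 9.03 on ITD78, 9.04 on ITD598, 8.86 on ITD602, 9.22 on ITD611 and 8.76 on ITD613, a span of 0.46. ITD613 was lowest on all 3 Hif1a probe sets above the filter. On 1 of them the range was 1.43, with every array in the low range. The Hif1a protein is controlled mainly by degradation, which these transcript values do not show. Egln1, the prolyl hydroxylase that does most of this marking, ranged from 6.07 on ITD78 to 6.31 on ITD602. A weaker Egln1 probe set ranged over 0.61, from 4.64 on ITD78 to 5.25 on ITD602. Egln3, a related hydroxylase strongly induced by hypoxia, read 7.53 on ITD78, 8.43 on ITD598, 8.56 on ITD602, 8.48 on ITD611 and 6.90 on ITD613. Its order was that of Hk2, with ITD613 low, ITD78 0.90 below the lowest of the remaining arrays, and those 3 within 0.13.

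Ndrg1 and Vegfa were low on ITD613 but, unlike Egln3, not on ITD78. Ndrg1, a stress-responsive gene induced by hypoxia and in differentiating cells, read 6.85 on ITD78, 6.67 on ITD598, 6.77 on ITD602, 6.46 on ITD611 and 5.32 on ITD613. ITD613 was 1.14 below the nearest array, and all 5 Ndrg1 probe sets had their lowest value there. ITD78 was the highest array on this probe set, while on 2 of the 5 ITD602 was higher than ITD78. Vegfa, the growth factor of blood vessels, read 4.63 on ITD78, 4.22 on ITD598, ITD602 and ITD611 alike, and 3.63 on ITD613. With low values raised to 3.74 its ITD613 difference from the mean of the others was -0.58 in place of -0.69. P4ha1, a collagen prolyl hydroxylase subunit, read 3.94 on ITD78, 4.48 on ITD598, 4.99 on ITD602, 4.68 on ITD611 and 4.80 on ITD613. It was the 1 member of the 9 that was low on ITD78 and not on ITD613.

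Ero1a, Car9 and Bnip3 ranged over less than 2-fold, and Bnip3l could be read only on shared probe sets. Ero1a (listed as Ero1l), which oxidises disulfide bonds in the endoplasmic reticulum, read 6.74 on ITD78, 7.21 on ITD598, 7.24 on ITD602, 7.39 on ITD611 and 6.40 on ITD613. Its range of 0.99 placed it just under 2-fold, where Vegfa with 1.00 was just above. Car9, a carbonic anhydrase and common hypoxia marker, stayed in the low range on every array (2.91 to 3.70). Bnip3, a mitophagy receptor, ranged over 0.18. Its promoter window held 5 core matches, of which 2 are the strands of 1 CACGTG, and a link between matches and range was not tested. The related receptor Bnip3l went the other way, as far as it can be read: its 3 probe sets, all shared with a pseudogene, had ranges of 1.10 to 1.30 and were 0.86 to 1.03 higher on ITD613 than the mean of the other 4. The strongest of these probe sets read 8.78 on ITD78, 8.22 on ITD598, 7.85 on ITD602, 8.13 on ITD611 and 9.11 on ITD613, so that ITD613 and ITD78 were the high arrays.

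Over the list, 6 of the 26 members read on ITD613 at least 2-fold below the average of the remaining arrays (23.1%; 2.35% of all genes), and 0 of 26 were 2-fold above it (3.18% of all genes). The 6 were Slc2a1, Hk2, Hk3, Pgam1, Egln3 and Ndrg1. The median difference on ITD613 was -0.41 for the 17 glycolysis members and -0.41 for the 9 hypoxia members, against 0.01 for all genes. Held against every other array, only Hk2 and Ndrg1 were at least 2-fold lower on ITD613 (7.69%; 0.925% of all genes). That count was set by ITD78: without the ITD78 array all 6 were 2-fold below each remaining array (23.1%; 2.33% of all genes).

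**Figure D3:**
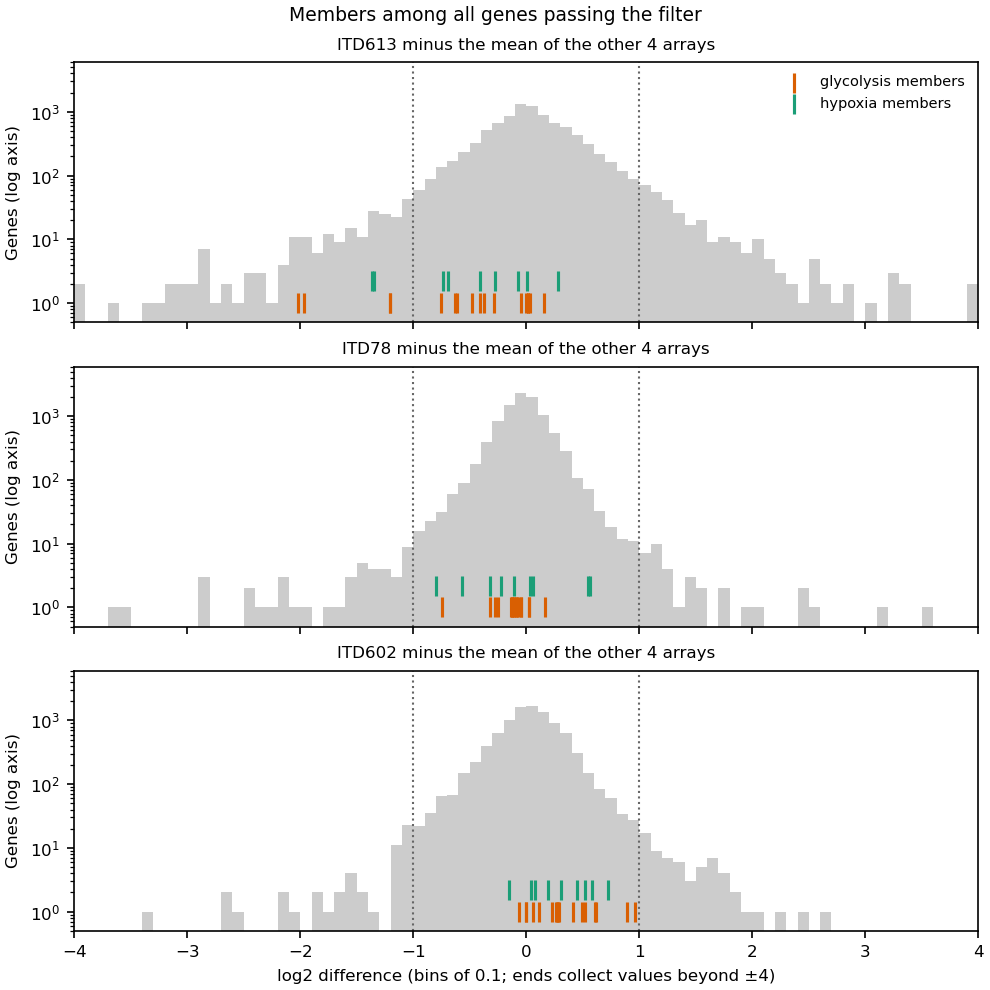
Grey bars count all 9621 genes (log axis) by the log2 difference of 1 array from the mean of the other 4, and coloured ticks mark the glycolysis and hypoxia members. On ITD613 the ticks run from -2.02 to 0.28, on ITD78 from -0.80 to 0.56 and on ITD602 from -0.16 to 0.96, and dotted lines mark 2-fold.

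ITD78 shared the low side of ITD613 for much of glycolysis, at smaller size. With ITD613 left out, ITD78 was the lowest array for 16 of 26 members (61.5%; 34.3% of all genes), 11 of them in glycolysis. With all arrays, 12 of 26 members had ITD613 lowest and ITD78 second lowest (46.2%; 16.6% of all genes), 9 in glycolysis and 3 (Egln3, Ero1a and Car9) in the hypoxia group. The median difference of ITD78 from the mean of the other 4 was -0.11 in both groups, against -0.03 for all genes, and 0 of 26 members were 2-fold below that mean (0.457% of all genes). The glycolysis median was -0.03 without ITD602 and -0.21 without ITD613, and -0.06 with each array centred on its median. Set directly against ITD78, 20 of 26 members were lower on ITD613 (76.9%; 43.4% of all genes), and Hk2, Vegfa and Ndrg1 were so by at least 2-fold (11.5%; 1.26% of all genes). With low values raised to 3.74, Vegfa was no longer among them and 2 members were left.

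ITD602 read slightly above the others across the list. The median difference was 0.28 for glycolysis and 0.30 for hypoxia members, against 0.03 for all genes, and 22 of 26 members were above the mean of the other 4 arrays (84.6%; 55.4% of all genes). None of the 26 was 2-fold above that mean (0.676% of all genes), and the largest differences were 0.96 for Hk3 and 0.89 for Hk2, against a mean that holds their low ITD613 and ITD78 values. Hk3 read higher on ITD598 (6.45) than on ITD602 (6.38). Without ITD613 the ITD602 medians were 0.21 for glycolysis and 0.13 for hypoxia members. Between ITD598, ITD602 and ITD611 no member differed 2-fold in any of the 3 pairs (0.125% to 0.26% of all genes), and the widest difference was 0.63 for Pfkl between ITD598 and ITD602. Between ITD602 and ITD613, the extremes of the list, 7 of 26 members were 2-fold lower on ITD613 (26.9%; 3.92% of all genes) and 24 of 26 were lower at all (92.3%; 49.1% of all genes). Against ITD598 and against ITD611 the same 6 genes were 2-fold lower on ITD613 (23.1%; 2.85% and 2.83% of all genes). These pairs share the ITD613 array.

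Probe sets of 1 gene mostly had the same sign on ITD613. Of the 52 probe sets of members that passed the filter, 42 read below the mean of the other 4 arrays on ITD613 (49.6% of all 16694 single-gene probe sets passing the filter), and for 37 ITD613 was the lowest array (30.9% of all). All 3 probe sets of Slc2a1, both of Egln3 and all 5 of Ndrg1 had ITD613 lowest. Hk2 and Pgam1 rest on 1 probe set each.

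**Figure D4:**
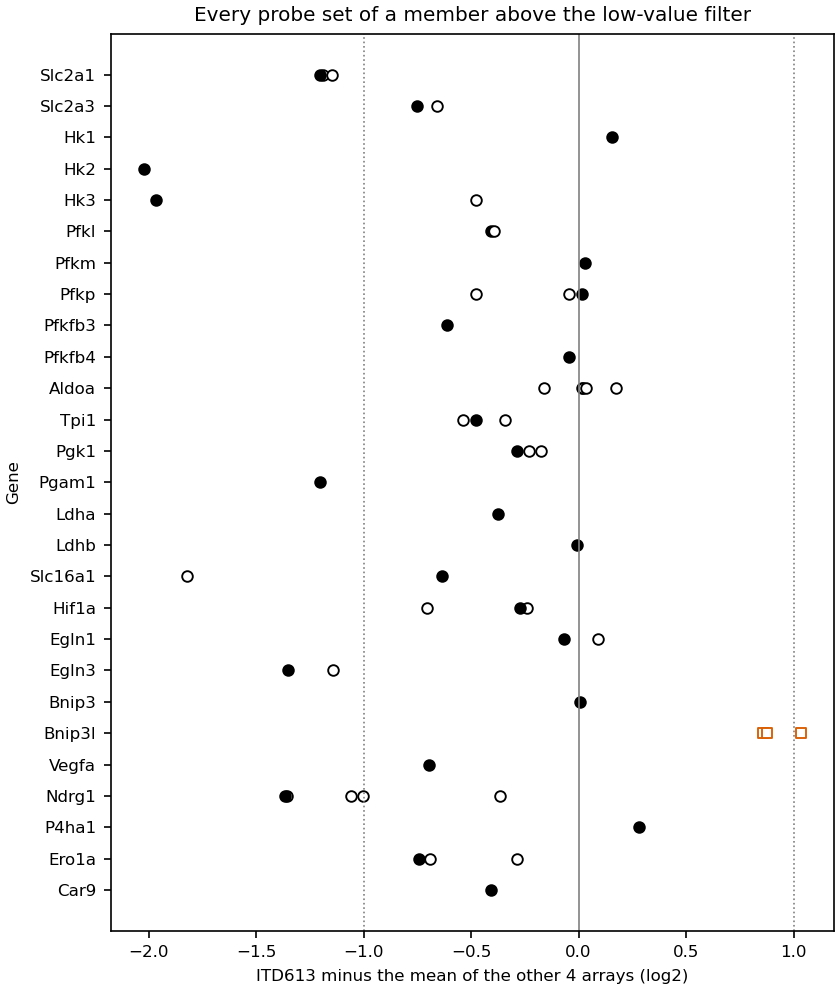
Each point is 1 probe set above the low-value filter, placed by its log2 difference between ITD613 and the mean of the other 4 arrays; filled points are those used for the gene and orange squares are probe sets shared by Bnip3l and its pseudogene. Probe sets of Slc2a1, Egln3 and Ndrg1 lie on the low side together, the second Hk3 probe set lies at -0.48 against -1.97 for the one used, and Bnip3l lies on the high side.

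Genes of the same pathways outside the list were mixed. Of 23 further glycolysis genes, 15 passed the filter, and on ITD613 2 were 2-fold or more below the average of the remaining arrays (2.35% of all genes) and 1 above (3.18%). These calls rest on values in the low range below 3.74 and cannot be sized. Tigar, a phosphatase that lowers fructose 2,6-bisphosphate, read 2.34 on ITD613 and 2.97 to 4.20 elsewhere, and the transporter gene Slc2a6 read 1.35 against 2.29 to 2.97, passing the filter on the ITD602 array alone. Pfkfb2 was the higher one (4.14 against 2.87 to 3.03). Pgm1, which links glycogen to glycolysis, read 5.18 on ITD78, 5.68 on ITD598, 6.02 on ITD602, 5.81 on ITD611 and 4.69 on ITD613, the order of Hk2. The 7 pentose phosphate genes that passed the filter (9 listed) had no member with a 2-fold range, and their median difference on ITD613 was -0.0010.

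Of 35 further HIF target genes, 25 passed the filter and 15 of these 25 were lowest on ITD613 (29.4% of all genes), with a median difference of -0.14 against 0.01 for all genes. On ITD613, 3 were 2-fold or more below that average (2.35% of all genes) and 2 above (3.18%). Bhlhe40, a transcriptional repressor, read 4.73 on ITD78, 5.53 on ITD598, 5.89 on ITD602, 5.61 on ITD611 and 3.77 on ITD613, the order seen for Hk2. Car12, a carbonic anhydrase of the cell surface, read 2.67 on ITD613, in the low range, and 3.94 to 4.71 elsewhere. Narf and Selenbp1 went the other way, at 7.24 against 4.41 to 5.41 and at 4.96 against 3.72 to 4.33. Of the 11 genes of HIF regulation, 10 passed the filter and only Arnt2, in the low range, had a 2-fold range.

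Lineage markers also differed between the arrays. Of 9 myeloid progenitor markers 6 passed the filter, while Kit, Cd34 and Cebpa were below it on all arrays. On ITD613 the median difference of the 6 was -0.57: the leukocyte antigen gene Ptprc (7.41 against 8.31 to 8.999), the cytokine receptor gene Csf2rb (6.71 against 7.003 to 8.54) and the factor gene Spi1 (3.63 against 3.94 to 4.70) were lowest there, and the progenitor factor gene Myb was highest (9.91 against 8.91 to 9.34). Mpo, with the widest range of the 6, read 5.18 on ITD613, within the others (4.52 on ITD78 to 6.55 on ITD598). Il3ra ranged over 0.19 and lay in the low range on every array. Means of the marker lists below are over all markers with a probe set, whether or not they passed the filter, since some passed it only where they were high. The 8 macrophage markers had a mean log2 value of 2.41 on ITD613 and 2.67 on ITD78 against 3.49 to 3.78 on the other arrays, with Itgam, Cd68 and Mrc1 below the filter. Adgre1 read 2.68 on ITD613 and 3.003 on ITD78, both in the low range, against 6.51 to 7.21 elsewhere. Fcgr1 read 3.06 and 3.87 there against 5.25 to 5.83, and Csf1r was also lowest on ITD613. Lyz2 ranged over 0.28, and Ctss was lowest on ITD78. The 10 erythroid markers measured (of 12) had a mean of 6.66 on ITD613 and 5.98 on ITD78 against 4.35 to 4.77, with Alas2 and Hba-a1 below the filter. Hba-x had the widest range of these (11.27 on ITD613 and 10.13 on ITD78 against 5.44 to 7.13). Epor ranged over 0.16 and lay in the low range on every array. The 8 mast cell and basophil markers measured (of 9) had a mean of 2.66 on ITD613 against 1.96 to 2.04. Fcer1a (3.96 on ITD613 and 0.67 to 0.72 elsewhere) and Cpa3 (4.56 against 2.48 to 3.66) were highest on ITD613. Fcer1a passed the filter on that array alone. Mcpt8 was not highest there (5.70 against 5.94 on ITD598), and Mcpt2 and Cma1 were lowest there. Mcpt1, Mcpt2, Tpsab1, Tpsb2 and Cma1 were below the filter on all arrays. The 7 megakaryocyte markers had a mean of 4.07 on ITD613, 5.31 on ITD78 and 4.50 to 4.71 elsewhere, and its genes were mixed on ITD613. Pf4 (3.09 against 5.99 to 6.51) and Selp (2.99 against 5.49 to 6.12) were low there. Gp9 (6.79 on both against 5.26 to 5.87) and Itga2b (8.42 and 8.58 against 7.99 to 8.23) were higher on ITD613 and ITD78. The median ITD613 difference of the 6 megakaryocyte markers passing the filter was -0.05. Vwf was high on ITD78 alone (6.56 against 2.96 to 3.91). The mean of the 12 neutrophil markers was lowest on ITD78 (3.06), with 3.76 on ITD613 and 3.61 to 4.62 elsewhere, and its genes were mixed on ITD613: against the mean of the others the log2 difference was -2.38 for Ctsg and 1.01 for Ngp. No stromal or lymphoid marker passed. The part of these differences in the glycolysis and hypoxia values was not tested.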

How the data were processed

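Biotin-labelled RNA of 5 cultures, 1 per construct, was read on Affymetrix mouse expression arrays, per the labels' protocols. The authors deposited log2 values of 45101 probe sets, normalized and summarised with RMA, per the submitters' processing notes; software version and chip definition are not given in the sources used here. That the base is 2 follows from a maximum (13.45) above the natural log of what a scanner can record (11.09). Probe sets were named from the platform annotation, with Ero1l found under its RefSeq name Ero1a, and those listing several genes (932) were left out. The probe set with the highest mean stood for its gene. All 9621 genes passing the 60th percentile formed the background, with Python 3.11.15 and pandas 2.3.3. Of each further pathway list, up to 4 genes with the widest range of at least 2-fold were named. The marker genes were not named by this rule. The neutrophil markers S100a8, S100a9 and Ms4a3, with wider ranges than Ctsg and Ngp, enter only through the list mean. The number of arrays limits the precision. The members and lists were chosen with earlier results of these data known.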

Additional observations from a re-analysis of the deposited data

How the results depend on the processing

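No paired analysis was possible because each construct has 1 array and the labels give no replicate numbers. The number of arrays limits the precision, and differences within the low range cannot be sized. Under the 10 alternatives tried and with each array left out in turn, the median differences on ITD613 stayed negative (-0.48 to -0.32 for glycolysis, -0.49 to -0.27 for hypoxia members) and those on ITD602 positive (0.21 to 0.34 and 0.13 to 0.40), while the hypoxia median on ITD78 reached 0 with low values raised. The named genes kept their sign, but with probe sets averaged per gene the ITD613 difference moved to -1.22 for Hk3, -1.03 for Ndrg1, -0.48 for Slc2a3 and -0.48 for Vegfa, both averaged with probe sets below the filter, and the ITD78 difference of P4ha1 to -0.58. Without _x_at and _s_at probe sets it was -0.48 for Hk3 and -1.06 for Ndrg1, Slc2a3 was left with probe sets below the filter, and 1 member in place of 2 was 2-fold below every other array on ITD613. With a 1.5-fold threshold, 15 members had that range in place of 9, 7 were that far below every other array on ITD613 in place of 2, and the members apart numbered 10 between ITD598 and ITD613, 13 between ITD602 and ITD613, 11 between ITD611 and ITD613, 8 between ITD78 and ITD613 and 1 between ITD598 and ITD602. With probe sets of several genes included, 2 members were highest on ITD613 in place of 0. They were Bnip3l and Hk1, the latter on a probe set (11.29 to 11.81) that also lists Rpl17 and other genes. With arrays centred on their medians 1 member was lowest on ITD78 in place of 4. With 1 array left out, 3 to 9 members had a 2-fold range (3 without ITD613), 2 to 6 were 2-fold below every other array on ITD613 (6 without ITD78), 0 to 3 were highest on ITD613 (3 without ITD602) and 4 to 16 lowest on ITD78 (16 without ITD613). Beyond the alternatives' own construction, the cause of these shifts was not tested.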
